A study of Drosophila melanogaster with 2 samples.

Results

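Cytosolic ribosomal protein genes were taken as all annotated genes whose symbol starts with RpL or RpS, which leaves out the mitochondrial set. The rule gave 92 genes of 18277 annotated on the chromosome arms, all of them protein-coding, 54 of the large and 38 of the small subunit by symbol. They were described in a chromatin immunoprecipitation sequencing (ChIP-seq) experiment on Drosophila melanogaster embryos of both sexes, 0 to 16 h old. The embryos were from a transgenic line that stably expresses Jing with a C-terminal green fluorescent protein (GFP), and the chromatin, sonicated to 200 to 800 bp, was precipitated with an antibody against GFP. The promoter that drives the fusion and whether untagged Jing remains are not stated in the labels. There was 1 group, of 2 biological replicates that the labels number 2 and 3, and no second genotype, age or treatment, so nothing could be tested between conditions. Whole embryos mix all cell types, so the share of cells with a given peak is not known.

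Ribosomal proteins assemble with ribosomal RNA into the small subunit, which decodes messenger RNA, and the large subunit, which joins amino acids. Their genes are short, among the most strongly transcribed in growing cells, and dispersed over the chromosomes, and the loss of 1 copy of many of them gives flies the Minute phenotype of slow growth and thin bristles. Many of their promoters in flies carry a polypyrimidine initiator at the start site in place of the common initiator, and some carry the DNA replication-related element (DRE), a site of DREF and BEAF-32. Jing is a zinc finger transcription factor studied in the trachea and the nervous system midline.

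The deposited peak lists, in dm6, were 30000 relaxed peaks of each replicate, 30000 of the pooled reads, and 2593 thresholded peaks from the authors' irreproducible discovery rate step. The thresholded list held the 2593 strongest peaks of the pooled list. Peaks were given to genes by their summit, the highest point, which had to lie in the span of the gene or at most 1 kb outside it. Peaks are ranked by the authors' signal within a list, with rank 1 the strongest, since the scale of the signal is not given. The lists carry no read counts, so the depth of each library is unknown. A gene missing from a list had no peak among 30000 with its summit in this range, which is not a measurement of zero. Exact binomial intervals at 95% cover counting error only and treat genes as independent.

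Jing-GFP peaks were found at the start sites of many ribosomal protein genes. A thresholded peak was found at 29 of 92 ribosomal protein genes (31.5%), against 15.0% of 13968 protein-coding genes. The size of this difference depended on the library: as many of the strongest peaks of replicate 2 alone gave 44 genes (47.8%), against 15.4% of protein-coding genes, and those of replicate 3 alone gave 20 (21.7%, interval 13.8 to 31.6), an interval that includes the 15.4% of protein-coding genes found there too. With the summit required within 500 bp of a start site of the gene itself, the count was 27 of 92 (29.3%, interval 20.3 to 39.8), against 8.59% of protein-coding genes. By this start-site rule the strongest peaks of replicate 2 alone gave 42 genes (45.7%), against 9.39% of protein-coding genes. Those of replicate 3 alone gave 17 (18.5%), against 8.88%. The median span was 1315 bp in ribosomal protein genes and 2164 bp in protein-coding genes, so the first rule scans less sequence at ribosomal protein genes. In the relaxed pooled list 51 of 92 (55.4%) had a peak by the first rule, against 50.7% of protein-coding genes. By the start-site rule 43 had one (46.7%), against 29.3%. Among the strongest 500 pooled peaks the shares by the first rule were 4.35% and 4.27%, and among the strongest 1000 they were 14.1% and 7.71%. By the start-site rule they were 4.35% and 2.47% among the strongest 500, and 13% and 4.35% among the strongest 1000.

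Few of these peaks were among the very strongest: the strongest 250 pooled peaks gave 1 ribosomal protein gene (1.09%), against 2.4% of protein-coding genes. RpS27, a small subunit gene, had the strongest, at 3R 25247528 with a pooled signal of 517 and rank 167. RpL23A followed at 3L 1668771 with a signal of 396 (rank 293), and RpL7 at 2L 10201021 with 379 (rank 329). RpL14, also of the large subunit, had 314 at 3L 8600978 (rank 465). Among own-start peaks the median signal was 172 (quartiles 160 and 246) in ribosomal protein genes, and 189 (quartiles 140 and 317) at the 944 other promoter peaks. Signals above 500 were seen at 1 of 28 own-start peaks of ribosomal protein genes (3.57%, interval 0.0904 to 18.3) and at 111 of 944 others (11.8%). The interval includes the share of the others.

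**Figure D1:**
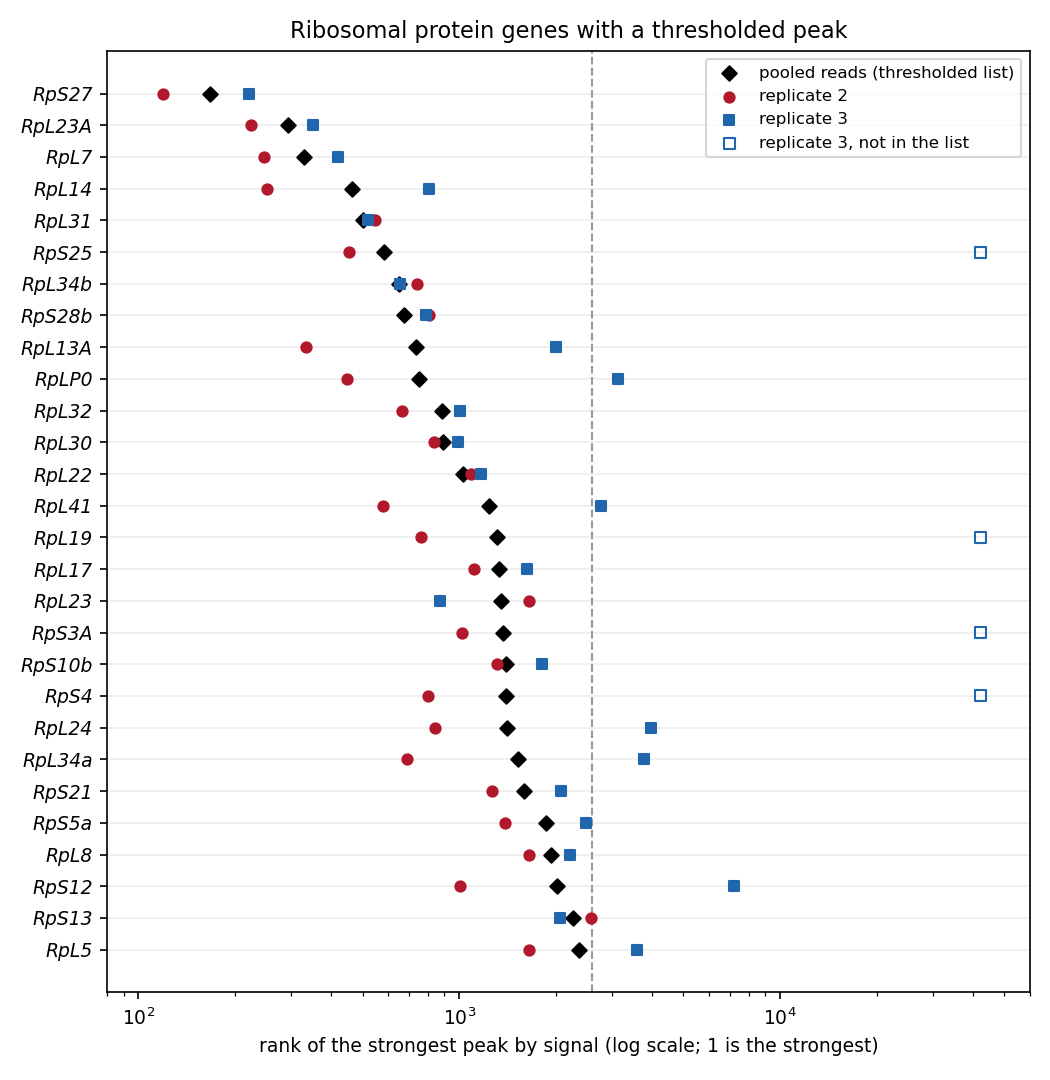
Rank by signal (log scale, 1 is the strongest) of the strongest peak of 28 of the 29 ribosomal protein genes with a thresholded peak, in the pooled reads (black), replicate 2 (red) and replicate 3 (blue), with open squares for genes not in the list of replicate 3 and a dashed line at rank 2593. All 28 red points lie before the line, and 18 of the blue ones do.

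The large subunit supplied 19 of the 29 genes, from 54 members (35.2%, interval 22.7 to 49.4), and the small subunit 10 of 38 (26.3%, interval 13.4 to 43.1). The intervals overlap. Of the acidic stalk proteins, which recruit elongation factors, RpLP0 had a thresholded peak, at -10 bp from a start site with rank 748. RpLP1 had rank 4095 in the pooled list, and RpLP2 was in neither the pooled list nor that of replicate 3. RpL5 and RpL11 bind 5S ribosomal RNA together: RpL5, with rank 2364, came last of the 29 genes by their strongest peaks, and RpL11 had no peak in any list.

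Other genes of the large subunit had own-start peaks in the middle of the ranking. RpL34b had rank 647, RpL13A 733, RpL32 887 and RpL30 888. RpL32, long used as a reference transcript under the name rp49, had its summit at -92 bp. RpL22, whose fly protein carries an extension like histone H1, had rank 1027, and RpL41, RpL19, RpL17, RpL23, RpL24, RpL34a and RpL8 had ranks from 1238 to 1926. RpL23 had 2 own-start summits, at -267 and -52 bp.

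In the small subunit, RpS25 was second to RpS27, with its summit at -70 bp and rank 581. RpS28b had a summit at -35 bp with rank 881. RpS3A, the only member on chromosome 4, had its summit at -136 bp with rank 1366. RpS10b (1395), RpS4 (1401), RpS21 (1587) and RpS5a (1869) came next. RpS12, known from cell competition between Minute and normal cells, had its summit at 15 bp downstream of the start with rank 2019.

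Some of the 33 thresholded peaks in or near these genes lay at the start sites of neighbours. In all 28 of 33 (84.8%, interval 68.1 to 94.9) were within 500 bp of a start site of the ribosomal protein gene. The peak counted for RpL31 was at 1681 bp from its start and at -134 bp from that of CG1827, and the peak counted for RpS13 was at 1989 bp and at -138 bp from CG7627. These were the only thresholded peaks of RpL31 and RpS13, and neither is among the 27 genes above. Further peaks of RpS28b, its strongest (rank 673), and of RpL34b were at -105 bp from l(1)G0320 and -102 bp from CG34117. A second peak of RpLP0 lay 2180 bp downstream of its start. The own-start peak of RpL34a lay nearer to the divergent gene Trmt61 (-83 bp) than to RpL34a itself (-146 bp).

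Summits of ribosomal protein genes sat close to the start site. The median position of the 28 own-start summits was -62 bp (order-statistic interval -82 to -32; quartiles -88.2 and -24.5, negative is upstream), against -142 bp (quartiles -243 and -57.8) for 944 own-start summits of other protein-coding genes. Within 100 bp of the start lay 22 of 28 (78.6%, interval 59.0 to 91.7) and 258 of 944 (27.3%, interval 24.5 to 30.3). All but 1, the -267 bp summit of RpL23, were within 150 bp, against 438 of 944 (46.4%). RpL7 (17 bp), RpS12 (15 bp) and RpS21 (8 bp) had summits downstream of the start. By the annotation of the gene, 23 summits were upstream of it and 5 in an exon before the coding sequence.

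**Figure D2:**
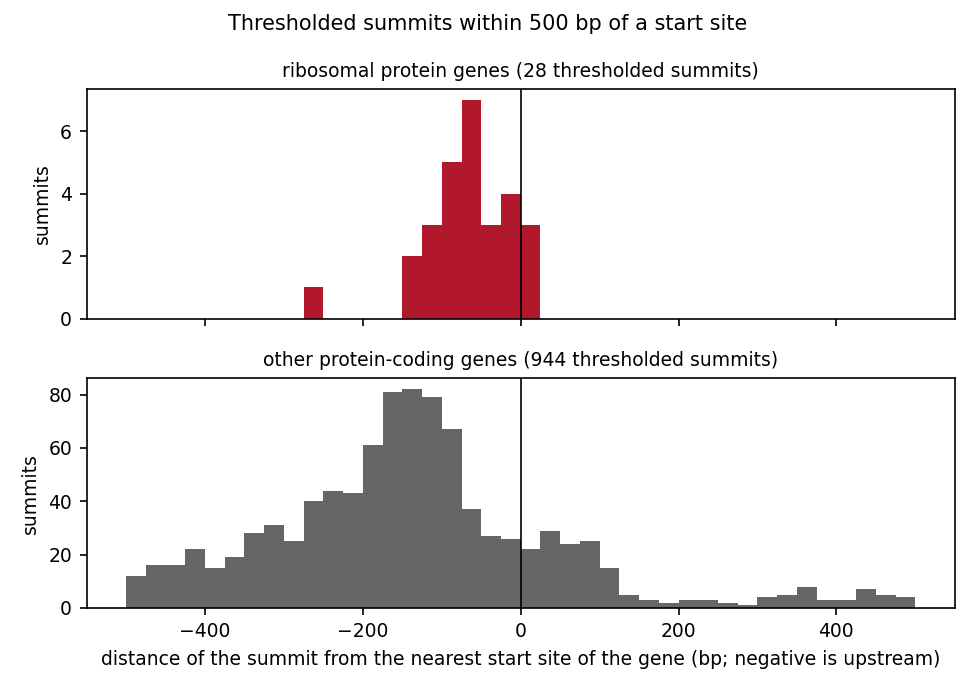
Distance in bp from each thresholded summit within 500 bp of a start site to the nearest start of its gene, in bins of 25 bp, for ribosomal protein genes (above, 28 summits) and other protein-coding genes (below, 944 summits). The upper distribution is narrow with its median at -62 bp, and the lower one is broad with its median at -142 bp.

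The relaxed lists were read in the same way, where the strongest own-start summit of each gene was taken. In replicate 2 the median was -34 bp over 67 ribosomal protein genes, against -114 bp over 4740 others. In replicate 3 it was -58.5 bp over 36 genes, against -124 bp over 4036 others. Within 100 bp of the start lay 88.1% of summits of ribosomal protein genes in replicate 2, against 30.1% of others, and 66.7% in replicate 3, against 22.5%. Start sites are annotated positions, and how precisely each is known was not tested.

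Promoter sequence is shown for members on arms other than the right arm of chromosome 2, from 100 bases before the annotated start of the canonical transcript to 20 bases from it on, in Release 6 coordinates of the RefSeq genome. The members shown are the 4 with the strongest peaks, those whose ranks differed most between the replicates, and the first by symbol of those without a pooled peak. Capitals mark matches to the short sequences searched, listed after them. Labels refer to peaks in or near the gene, which need not lie in the sequence shown.
RpS27 (chr3R:25247495-25247614, minus strand, strongest peak): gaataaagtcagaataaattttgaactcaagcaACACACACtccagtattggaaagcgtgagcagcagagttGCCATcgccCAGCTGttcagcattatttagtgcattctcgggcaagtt
RpL23A (chr3L:1668635-1668754, minus strand, strongest peaks): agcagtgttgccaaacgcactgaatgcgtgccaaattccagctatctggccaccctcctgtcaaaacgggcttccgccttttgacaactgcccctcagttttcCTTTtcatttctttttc
RpL7 (chr2L:10200904-10201023, plus strand, strongest peaks): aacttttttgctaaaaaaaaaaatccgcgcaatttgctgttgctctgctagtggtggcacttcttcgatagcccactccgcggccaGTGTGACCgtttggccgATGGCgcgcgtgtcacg
RpL14 (chr3L:8600906-8601025, plus strand, strongest peaks): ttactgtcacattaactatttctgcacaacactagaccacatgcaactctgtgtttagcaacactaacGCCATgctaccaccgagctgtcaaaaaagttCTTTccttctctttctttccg
RpS25 (chr3R:11216268-11216387, minus strand, in replicate 2 and not in replicate 3): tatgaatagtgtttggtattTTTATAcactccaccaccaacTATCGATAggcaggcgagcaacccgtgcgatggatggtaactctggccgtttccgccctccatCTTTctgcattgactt
RpS4 (chr3L:13041656-13041775, plus strand, in replicate 2 and not in replicate 3): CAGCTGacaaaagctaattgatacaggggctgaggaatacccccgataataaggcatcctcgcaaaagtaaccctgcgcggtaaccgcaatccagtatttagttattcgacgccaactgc
RpS10a (chr3R:27652660-27652779, plus strand, in replicate 3 and not in replicate 2): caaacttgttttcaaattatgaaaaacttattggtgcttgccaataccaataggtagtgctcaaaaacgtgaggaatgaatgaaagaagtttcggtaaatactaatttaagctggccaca
RpS19b (chr3R:23933511-23933630, minus strand, nearer the top in replicate 3): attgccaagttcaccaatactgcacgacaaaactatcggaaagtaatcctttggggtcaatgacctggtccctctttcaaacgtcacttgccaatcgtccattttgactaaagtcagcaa
RpL10Aa (chr3R:15037266-15037385, plus strand, no pooled peak): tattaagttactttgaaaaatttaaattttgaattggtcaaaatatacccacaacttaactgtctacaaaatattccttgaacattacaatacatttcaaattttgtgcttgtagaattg
RpL10Ab (chr3L:11822751-11822870, plus strand, no pooled peak): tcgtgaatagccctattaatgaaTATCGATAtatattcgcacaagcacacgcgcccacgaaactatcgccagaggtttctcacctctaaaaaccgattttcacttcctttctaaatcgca

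The sequences searched on both strands, from 250 bases before to 50 bases after the start, were the DRE (TATCGATA), its core ATCGAT, the core of the M1BP site Motif 1 (GGTCACAC), the E-box CAGCTG, the TATA box TATAAA, the GAGA repeat GAGAG, the GT repeat GTGTGT and the Pho core GCCAT. The core of the polypyrimidine initiator, CTTT, was counted on the gene strand with its C within 5 bases of the start. TATCGATA contains ATCGAT, so every DRE is also counted for the core. A match describes these letters only and is not a bound site.

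The polypyrimidine initiator core and the DRE were more frequent in ribosomal protein promoters than in all promoters, both in genes with a peak and in genes without. CTTT at the start was present in 42 of 92 (45.7%), against 5.72% of 13968 protein-coding promoters. The DRE was present in 28 (30.4%), against 8.94%, its core in 39 (42.4%), against 22.7%, and the Motif 1 core in 13 (14.1%), against 7.52%. GAGAG was present in 16 (17.4%), against 30.2%, CAGCTG in 9 (9.78%), against 17.9%, GTGTGT in 15 (16.3%), against 16.2%, TATAAA in 42 (45.7%), against 45.3%, and GCCAT in 41 (44.6%), against 40.7%. In the 27 genes with a thresholded own-start peak CTTT was present in 12 (44.4%), against 30 of the other 65 (46.2%). The DRE was present in 7 of 27 (25.9%), against 21 of 65 (32.3%).

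Where a DRE was present, the summits of several genes lay within 25 bp of it. Among ribosomal protein genes with a DRE and an own-start peak, the pooled summit was within 25 bp of the centre of the DRE in 6 of 12, against 15 of 273 (5.49%) in other protein-coding genes. In replicate 2 the counts were 7 of 22 (31.8%), against 32 of 395 (8.10%), and in replicate 3 they were 3 of 10, against 12 of 262 (4.58%). In replicate 2 the distance was 1.5 bp in RpL10Ab, 4.5 bp in RpS25, both shown above, and 7.5 bp in RpL19. These distances were chosen for description after the data were seen. Summits of ribosomal protein genes lay close to the start in general, and its part in these counts was not tested.

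The GC content of the 200 bp around own-start summits was 42.9% ± 6.80 (SD over 28 summits) in ribosomal protein genes and 36.1% ± 8.30 (SD over 944 summits) elsewhere. The spreads overlap widely. Around the start sites themselves it was 44.5% ± 6.29 (SD over 27 genes) with an own-start peak, 41.1% ± 5.36 (SD over 65 genes) in the other ribosomal protein genes, and 41.7% ± 7.70 (SD over 13968 genes) in all protein-coding genes.

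The replicates differed at these genes more than at others. When 2593 peaks were taken from the top of either replicate list, 44 of 92 ribosomal protein genes (47.8%, interval 37.3 to 58.5) had one in replicate 2, against 15.4% of protein-coding genes. In replicate 3 it was 20 of 92 (21.7%, interval 13.8 to 31.6), also against 15.4%. All 20 were among the 44, so the overlap was 45.5% of the replicate 2 set and 100% of the replicate 3 set. For protein-coding genes the overlap was 79.1% and 79.2%.

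The relaxed lists showed the same split. In replicate 2, 75 of 92 genes had a peak (81.5%), against 54.8% of protein-coding genes, and in replicate 3, 44 of 92 (47.8%), against 54.0%. With the summit within 500 bp of a start site these were 67 genes (72.8%), against 34.4%, in replicate 2 and 36 genes (39.1%), against 29.2%, in replicate 3. Thus 33 genes (35.9%) were in the list of replicate 2 alone, against 1975 protein-coding genes (14.1%). In the list of replicate 3 alone were 2 genes (2.17%), RpS10a and RpL10Aa, against 1858 protein-coding genes (13.3%). Neither had a summit of replicate 3 within 500 bp of its start.

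**Figure D3:**
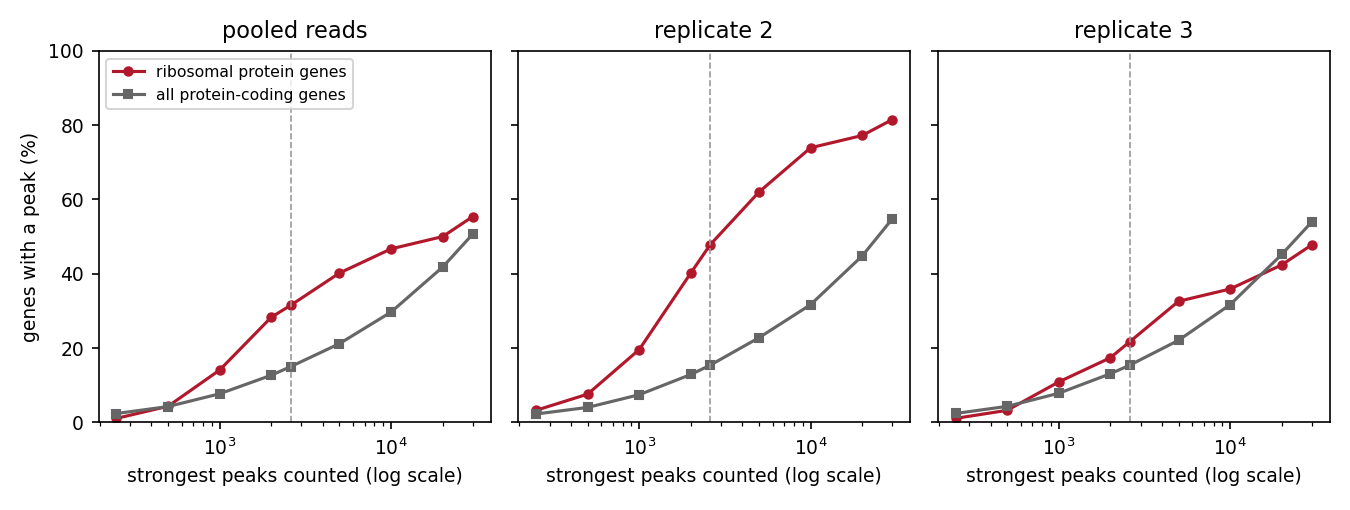
Share of ribosomal protein genes (red) and of all protein-coding genes (grey) with a peak among the strongest peaks of the pooled reads, replicate 2 and replicate 3, against the number of peaks counted (log scale), with a dashed line at 2593. At that line the red curve is at 31.5%, 47.8% and 21.7% and the grey one at 15.0%, 15.4% and 15.4%.

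Of the 77 ribosomal protein genes in either list, 65 (84.4%, interval 74.4 to 91.7) ranked nearer the top in replicate 2 and 12 in replicate 3. Over all genes of each set this is 70.7% of ribosomal protein genes, against 31.0% of protein-coding genes. Among protein-coding genes in either list the share was 45.5% (interval 44.5 to 46.5). With 2 replicates there is no spread of such shares between libraries to set this difference against, and which replicate is nearer to the usual state is not known.

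**Figure D4:**
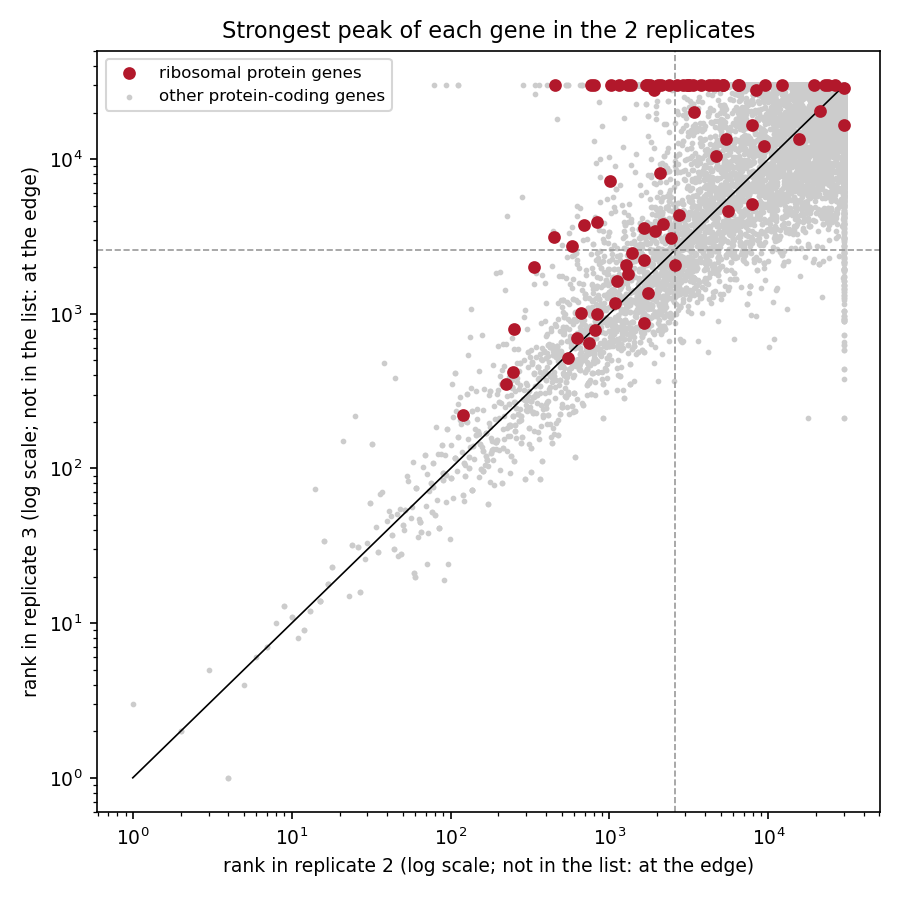
Rank of the strongest peak of each gene in replicate 2 (x axis) and replicate 3 (y axis), both on log scales with genes not in a list at the edge, for ribosomal protein genes (red) and other protein-coding genes (grey), with the diagonal and rank 2593 (dashed). Of the 77 red points, 65 lie above the diagonal, and 33 lie on the upper edge.

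The 4 strongest genes had peaks in both replicates, nearer the top in replicate 2. RpS27 had rank 119 in replicate 2 and 222 in replicate 3, RpL23A 224 and 351, RpL7 246 and 418, and RpL14 252 and 803. RpL34b (739 and 652) and RpL22 (1091 and 1170) had nearly equal ranks. The own-start peak of RpS28b had rank 816 in replicate 2 and 1025 in replicate 3.

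Other thresholded genes leaned on replicate 2. RpL13A had rank 333 in replicate 2 and 1997 in replicate 3, RpS12 1005 and 7177, and RpL24 840 and 3952. RpS25 (rank 455 in replicate 2), RpL19 (762), RpS4 (798) and RpS3A (1021) had no peak in the list of replicate 3. Their thresholded peaks were at pooled ranks 581, 1310, 1401 and 1366. RpLP0 had rank 448 in replicate 2, and its peak in replicate 3, rank 3117, was the distant one beyond its other end.

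Among the 2593 strongest of replicate 2, 13 ribosomal protein genes (14.1% of 92) had no relaxed peak in replicate 3, against 1.26% of protein-coding genes. The converse was seen at 0 of 92, against 0.544%. Beside the 4 genes above, the 13 were RpS20 (rank 1154), RpS16 (1314), RpL4 (1358), RpL36 (1697), RpL27A (1733), RpLP2 (1808), RpS27A (2012), RpL7A (2125) and RpL3 (2376). RpS27A encodes a fusion of ubiquitin with a small subunit protein. All but RpL7A of these 9 were also missing from the pooled list. The pooled peak of RpL7A was a different one, at -638 bp with rank 13569, while that of replicate 2 was at -29 bp.

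The same was seen peak by peak. Of 42 own-start peaks of ribosomal protein genes among the strongest of replicate 2, 15 (35.7%, interval 21.6 to 52.0) had no relaxed summit of replicate 3 within 200 bp, against 138 of 1035 (13.3%, interval 11.3 to 15.6) at other start sites. Of 18 such peaks of replicate 3, 1 had no summit of replicate 2 within 200 bp, against 58 of 961 (6.04%).

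Ranks nearer the top in replicate 3 were few and differed less. RpL23 had rank 870 in replicate 3 and 1651 in replicate 2, but at different summits: the first was the one at -265 bp, and the pooled summit at -52 bp had ranks 2009 in replicate 3 and 1651 in replicate 2. RpS13 had rank 2062 in replicate 3 and 2580 in replicate 2, with the peak near the start of CG7627. RpS19b had rank 1371 in replicate 3 and 1752 in replicate 2, with summits at -933 and -911 bp, near the 1 kb limit. No pooled summit lay within that limit, and whether one lay just outside was not examined. RpS10a had rank 16566 in replicate 3 alone, with the summit at 1318 bp from its start, beyond the end of the gene.

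By pooled rank, 3 members on each side lay closest to the threshold. Just inside were RpS12 (pooled rank 2019), RpS13 (2263) and RpL5 (2364), and just outside RpL38 (2677), RpS23 (2769, at 1613 bp from its start) and RpL27 (2858). RpL37A (3008) and RpS29 (3106) followed. RpS19a had pooled rank 5230, with 1908 in replicate 2 and 27938 in replicate 3, and RpS7 had 6443.

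No list held a peak for 15 of 92 genes (16.3%). These were RpL6, RpL11, RpL18, RpL22-like, RpL24-like, RpL28, RpL35, RpS2, RpS5b, RpS15, RpS15Ab, RpS18, RpS28-like, RpS28a and RpS30. Neither replicate list held one for 31.9% of protein-coding genes. RpS30, made as a fusion with a protein like ubiquitin, and RpS2 belong to no duplicated family. Of the 15 genes 6 do, against 27 of all 92.

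Several fly ribosomal proteins are encoded by more than 1 gene, and often 1 copy is used broadly and another mainly in the germ line. The families here were formed from symbols alone. Whether each copy, including those named -like, encodes a ribosomal protein, and where each is expressed, was not checked. The 13 families hold 27 genes, of which 9 had a thresholded peak (33.3%), against 20 of the 65 others (30.8%). Of the 8 families with such a peak, 7 had it at 1 copy. Thus RpS5a had rank 1869 and RpS5b was in no list, RpL22 had 1027 and RpL22-like none, RpS10b had 1395 and RpS10a pooled rank 10102, and RpS28b had 881 at its own start and RpS28a and RpS28-like none. RpL34a (1525) and RpL34b (647) both had one. Among all 92 genes 31.5% had a thresholded peak, and the number of families expected with 1 such copy was not computed. The RpS19 pair had no thresholded peak. RpS19b had rank 1752 in replicate 2 and 1371 in replicate 3, at -911 and -933 bp. RpS19a had 1908 and 27938. RpS14a and RpS14b, adjacent and nearly identical, were in the list of replicate 2 alone, at ranks 5164 and 12164. No source used here gives the treatment of reads that match more than 1 copy, so values of near-identical copies are uncertain.

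Neighbouring genes were common at these promoters. A protein-coding gene on the other strand started within 500 bp upstream of 36 of 92 ribosomal protein genes (39.1%, interval 29.1 to 49.9), against 27.3% of protein-coding genes. This held for 13 of 27 genes with an own-start peak (48.1%, interval 28.7 to 68.1) and 23 of 65 without (35.4%, interval 23.9 to 48.2), and the intervals overlap. Of the 28 own-start summits, 27 had a start of the ribosomal protein gene as the nearest. Small nucleolar RNA genes, which often lie in introns of ribosomal protein genes, were inside 11 of 29 genes with a thresholded peak (37.9%) and 17 of 63 without (27.0%), again with overlapping intervals. By chromosome, thresholded peaks were found at 6 of 19 genes on 2L, 5 of 21 on 2R and 6 of 14 on 3L. They were found at 6 of 23 on 3R, 1 of 1 on 4 and 5 of 14 on X. The intervals are wide and overlap (8.22 to 47.2 on 2R, 17.7 to 71.1 on 3L). Shares of all protein-coding genes by chromosome were not set beside these.

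Genes that work with the ribosome were set beside these. Of 12 genes of ribosome-associated and translation proteins, 4 had a thresholded peak (33.3%, interval 9.92 to 65.1, against 15.0% of protein-coding genes): larp (signal 849, at -330 bp), Hsc70-4, Rack1, a scaffold on the small subunit, and bic. The thresholded peak of bic was at -647 bp. In the strongest peaks of replicate 2 there were 7 of the 12 (58.3%, interval 27.7 to 84.8). In those of replicate 3 there were 3 (25%, interval 5.49 to 57.2). These intervals overlap, and the share of protein-coding genes was 15.4% in either replicate. The elongation factor gene eEF1alpha1 (rank 1496 in replicate 2), the gene of the nascent chain protein Nacalpha (1643), the poly(A) binding protein gene pAbp (1779), Tctp (2898) and eEF2 (2674) had no peak in replicate 3. Of 25 genes of ribosome assembly and ribosomal RNA synthesis, 2 had a thresholded peak (8%, interval 0.984 to 26, against 15.0% of protein-coding genes), Ns2 (signal 590) and NHP2 (202). Their counts in the strongest peaks were 3 in replicate 2 and 3 in replicate 3 (12% each, interval 2.55 to 31.2, against 15.4%). Surf6 was counted in replicate 2 alone (rank 2270, and 3719 in replicate 3). eIF6 was counted in replicate 3 alone, with rank 211. Neither replicate 2 nor the pooled list had a summit within 1 kb of eIF6, and whether one lay just outside was not examined.

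Of 16 regulators of ribosomal protein genes and of growth, 7 had a thresholded peak (43.8%, interval 19.8 to 70.1, against 15.0% of protein-coding genes). In the strongest peaks there were 6 of the 16 in replicate 2 (37.5%, interval 15.2 to 64.6). In replicate 3 there were 8 (50%, interval 24.7 to 75.3). The intervals overlap, and the share of protein-coding genes was 15.4% in either replicate. The strongest was at Irbp18, the partner of Xrp1 in the response to ribosomal protein loss, with a signal of 446 at -209 bp. REPTOR (353), Myc (254), Mnt (249), mTor, foxo and BEAF-32 followed. mTor had rank 968 in replicate 3 and no peak in the list of replicate 2. Xrp1 had pooled rank 3443, and M1BP, whose protein binds Motif 1, had 3720. Dref had no peak in the pooled list or that of replicate 3, and had rank 19472 in replicate 2. Thresholded peaks of Myc, Mnt and foxo were 8769, -1116 and -513 bp from the nearest start of the gene. The lists were counted by the span rule with 1 kb, which scans more sequence in long genes, and not by the start-site rule.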

How the data were processed

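Per the labels, 2 biological replicates of 1 group were profiled. Per the readme text deposited with each sample, the authors called peaks, per replicate and for both pooled, against a control alignment, not analysed here, and derived the thresholded list from these lists. The aligner and peak caller are absent from the sources. Each deposited peak has a signal of unstated scale and, by the narrowPeak format, the −log10 of a q-value. Only ranks by signal were set between lists.

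Ensembl release 115 gave genes and start sites, and the RefSeq Release 6 genome gave sequence; its arms are long enough for all peaks and genes. Assignment of summits to genes was tested on simulated summits. The sign of positions and the strand of sequences were not tested independently. Scripts ran in Python 3.11.15 with scipy 1.17.1 for intervals, pandas 2.3.3 and numpy 2.4.6 for tables, and matplotlib 3.10.9 for plots. No p-values were computed, since 1 group allows no test over samples.

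The members, lists and motifs were chosen with earlier results of these data known. Spellings in the lists were corrected, and genes with other functions dropped, before their values were read. A further gene, pes (peste, a scavenger receptor), was dropped from the ribosome assembly list after they were seen, with its thresholded peak, which leaves 53 genes. Named are members with a thresholded peak, those next to the threshold, the 5 with the largest rank ratio in each direction between replicates, those in no list, and list genes with a thresholded peak. Other list genes were named after their values were seen. Some genes that this rule names are not reported here.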

Additional observations from a re-analysis of the deposited data

How the results depend on the processing

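Of 28 values under alternative settings, 23 stayed within 1.5 times the reported count or within its spread, and 5 did not. Without the 1 kb margin, so that only summits inside the gene counted, 5 of 92 ribosomal protein genes had a thresholded peak in place of 29, and 11 a pooled one in place of 51, since most summits lay upstream of the start. With the stronger part of the thresholded list alone, 15 genes had a peak, a change that follows from counting fewer peaks. With 1 replicate left out and as many of the strongest peaks of the other taken, the count was 20 without replicate 2 and 44 without replicate 3, and for relaxed peaks it was 44 and 75. The share of summits at own start sites was 78.3% to 87.5%, and the median position -60.5 to -44.5 bp. TATAAA was in 16 promoters when 100 bp on both sides of the start were searched, in place of 42. The share ranked nearer the top in replicate 2 was 79.2% with summits matched within 100 bp. No paired analysis was possible because there was 1 group. The lists hold no read counts, so the depth behind a missing peak is unknown.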
